A study of Poecilia latipinna with 15 samples.

Results

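A set of 134 transcripts, of 21671 tested in the brains of 15 female sailfin mollies (Poecilia latipinna), was lower in abundance the stronger the preference of the female, both when she chose between males and when she chose between females. The members were chosen by their relation to the preference score: the Spearman correlation of their abundance with the score was -0.7 or less in the male-interaction context and also in the female-interaction context. Transcripts whose values did not overlap between females numbered 1 to 8 and females numbered 9 to 19 were left out. The preference score, taken from the supplementary table of the study, is the share of a female's movements toward the stimuli that was directed at the fish she favored. Abundance is given as CPM, the estimated count of a transcript divided by the total of its library and scaled to 1000000 counts, and levels of different transcripts are compared only in TPM, the same kind of scaled value with the length of the transcript accounted for.

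Sexually experienced, reproductively mature females that had lived in a campus pond were kept in isolation and then watched in a short choice trial without contact. In the male-interaction context (Mm, 8 females) the stimuli were a pair of males that differed in size, and in the female-interaction context (Ff, 7 females) a pair of females that differed in size. The whole brain was taken directly after the trial, each library is 1 female, and there was no group without social stimuli. Libraries held between 3424641 and 10555933 estimated counts. The labels number the females, and a lower score went with a higher number. The Spearman correlation between score and number was -0.88 in Mm and -0.86 in Ff. In Ff the 3 females with the lowest scores were exactly those numbered 9 to 19, and in Mm the 3 lowest scores were also in females 9 to 19. The labels do not say what the number stands for, so it is called the number group here and not a batch.

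The sailfin molly is a livebearing fish in which females choose mates and also choose shoaling partners, and body size is a known cue in both choices. RNA taken from the brain directly after a trial holds transcripts that respond quickly to social stimuli together with those that differ stably between individuals. In whole brains, less RNA per cell and fewer cells of a type that expresses a transcript cannot be told apart. The files do not pair transcript identifiers with genes: of 31813 transcripts, 0 were matched to the gene table at hand, which lists 30976 genes. The roles of the members, cell type markers of brain tissue and lists of neural pathways were therefore not analysed here, and members are described by length, level and rank, with 2 identifiers printed.

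Before the overlap condition, 201 transcripts met the correlation threshold in both contexts, 0.928% of those tested. Lists for the single contexts were larger, with 1102 transcripts in Mm (5.09% of those tested) and 1228 in Ff (5.67%), so that the shared 201 were 18.2% of the Mm list and 16.4% of the Ff list. In the opposite direction, 271 transcripts had a Spearman correlation of 0.7 or more in both contexts, of which 200 overlapped between number groups. Discordant transcripts were fewer: 23 were lower with preference in Mm and higher in Ff, and 14 were the other way round. The overlap condition removed 67 of the 201. All 67 were higher in females 9 to 19, as the choice favors, since the lowest scores of both contexts were in that number group. The share without overlap among all transcripts tested is not given, so nothing is read from this count. The median correlation of the members was -0.81 in Mm and -0.79 in Ff, and the lowest values were -0.98 and -0.96. Just inside the threshold lay 1 member at -0.708 and 20 at -0.714 in Mm, and 26 at -0.714 in Ff. Just outside lay 17 transcripts at -0.690 in Mm and 3 at -0.685 in Ff that met the condition in the other context. Without female 7 in Ff the rule would find 216 transcripts, of which 110 are among the 134. With fewer females the same threshold is met more easily, so 216 and 134 are not like for like. The correlations were used to select the members and describe them only.

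**Figure D1:**
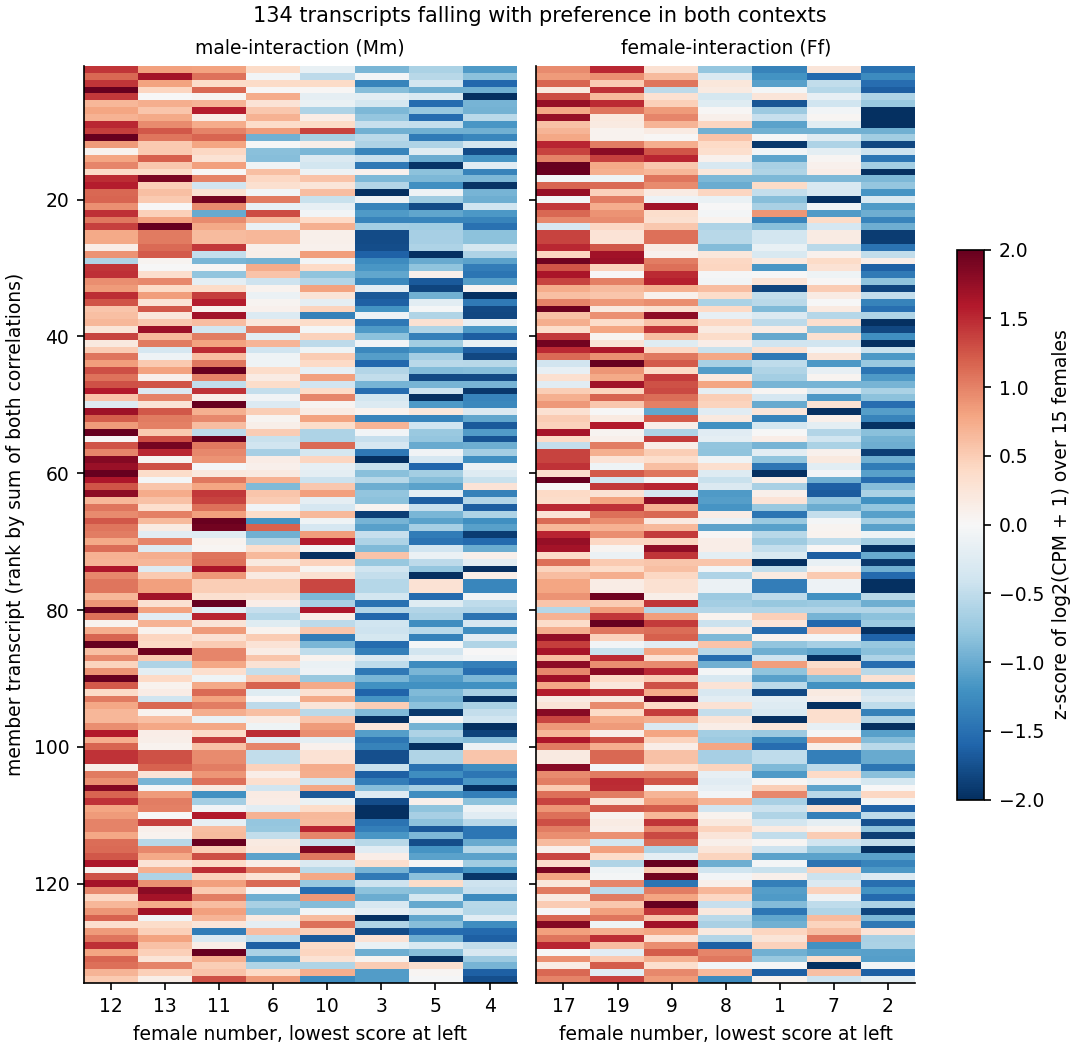
Level of each of the 134 members (rows, most negative sum of both correlations at the top) in each female (columns, lowest preference score at the left of each panel), as the z-score of log2(CPM + 1) over the 15 females. Red cells (higher) lie at the left of both panels and blue cells (lower) at the right, which is what the choice of members fixes; females 6 and 10 in Mm and female 8 in Ff lie between.

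The member with the most negative sum of both correlations was ENSPLAT00000005118.1, a transcript of 585 bases with a Spearman correlation of -0.98 in Mm and -0.86 in Ff. In Mm its CPM, from the lowest to the highest preference score, was 243, 210, 209, 188, 166, 138, 148 and 131. In Ff the order was 216, 248, 185, 143, 125, 182 and 120. The 3 Mm females with the lowest scores lay above all the other Mm females, and in Ff the second-highest score, in female 7, went with a CPM almost as high as that of female 9, whose score was lower. Mean CPM was 179 ± 39.8 (SD, n = 8) in Mm and 174 ± 47.7 (SD, n = 7) in Ff. The difference between contexts, Ff minus Mm, was -0.05 on the log2 scale (SE 0.18, limma, adjusted p = 1.0), and the ranges of the contexts overlapped almost fully.

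The most abundant member was ENSPLAT00000029062.1, with 3281 bases, a mean of 4359 CPM and a mean of 1742 TPM. Its CPM in Mm, in the same order of scores, started at 5013, 5451 and 4541 and ended at 3898, 3492 and 3368. In Ff the 3 lowest scores went with 5228, 5648 and 5825 and the 3 highest with 3451, 4304 and 3185. In both contexts the 3 females of low score were above the 3 of high score with no overlap. Averaged over the females, this transcript took up 0.436% of the counts of a library. Its difference between contexts was 0.13 (SE 0.16, limma, adjusted p = 1.0).

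After the leading member, the highest levels per length were 805 TPM in a member of 885 bases, 659 TPM in a member of 903 bases and 493 TPM in a member of 2024 bases. The member of 2024 bases ranged from 580 to 924 CPM in Mm (median 720) and from 681 to 937 CPM in Ff (median 722). The range of log2(CPM + 1) was smallest in a member of 3095 bases, which was second by the sum of its correlations. It lay between 86.4 and 115 CPM in Mm and between 79.4 and 106 CPM in Ff, so that its ranks followed the score closely over a narrow span of values.

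The widest ranges of log2(CPM + 1) belonged to members that were close to 0 in some females. A member of 1947 bases ranged from 6.94 to 122 CPM in Mm (median 79.6), and in Ff it rounded to 0 counts in female 2 and reached 134 CPM in female 17 (median 82.8). A member of 1716 bases with a mean of 41.3 CPM was between 83.4 and 137 CPM in the 3 Mm females of lowest score and at 0.739 CPM or less in the 3 of highest score. In Ff the same member was at 34.5, 17.7 and 140 CPM in the 3 females of lowest score, and its estimated count rounded to 0 in females 1 and 2. The longest member, of 7680 bases, was high in the 2 Mm females of lowest score, with 124 and 88.9 CPM, but only 8.83 CPM in female 11, next in that order. In Ff it spread from 19.3 to 117 CPM, and female 1, whose score was above the median of Ff, stood nearer to the top of this range than to its bottom.

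**Figure D2:**
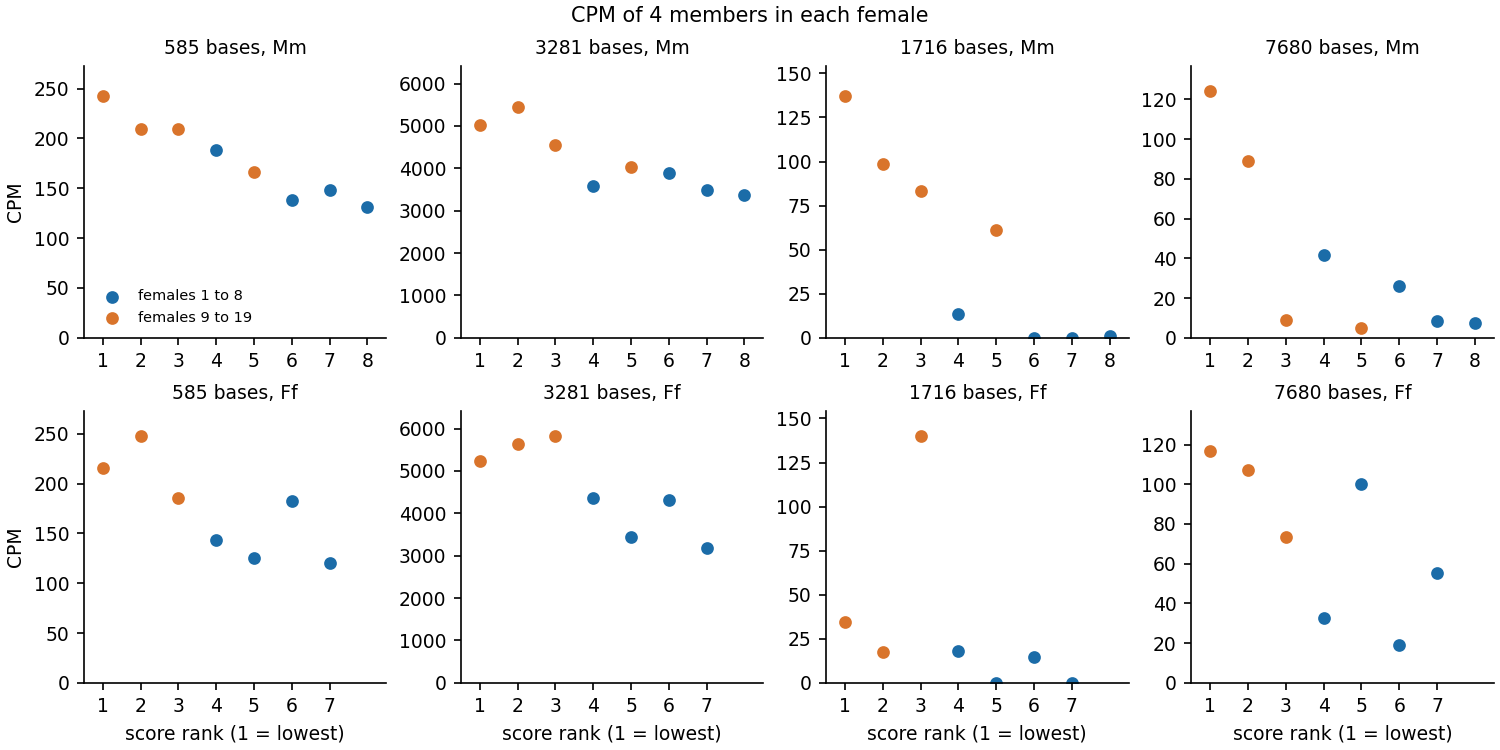
CPM (vertical axis, starting at 0) of 4 members in each female against the rank of her preference score within context (1 is the lowest), with Mm in the upper and Ff in the lower row, 1 point a female, colored by number group. In the members of 585 and 3281 bases the 3 lowest scores of each context, which in Ff are the females 9 to 19, stand above all the others. The member of 1716 bases reaches 0 at high scores in both contexts, and the member of 7680 bases scatters from 4.83 to 124 CPM in Mm and from 19.3 to 117 CPM in Ff.

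The size of the difference was modest for most members. Among the 114 members with no female at 0 (an estimated count under 0.5), the mean CPM of the 3 females with the lowest scores was a median of 1.62 times that of the 3 with the highest in Mm (quartiles 1.37 and 1.97, range 1.15 to 12.1). In Ff the median was 1.52 times (quartiles 1.30 and 1.78, range 1.13 to 5.95). A ratio of 2 or more was found in 27 of these members in Mm, in 15 in Ff and in 12 in both. All 3 females of low score were above all 3 of high score in 123 members in Mm (91.8%, against 8.82% of all transcripts tested). In Ff this held in 106 members (79.1%, against 6.93%), and in both contexts in 99 (73.9%, against 2.39%). These counts follow from the choice of members, and nothing is read from them.

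In limma (a linear model fitted across all transcripts, with voom weights), the slope on preference within context had a median of -0.19 per 0.1 of score on the log2 scale in Mm (quartiles -0.34 and -0.13, median SE 0.071) and of -0.19 in Ff (quartiles -0.31 and -0.12, median SE 0.085). All 134 slopes were negative in both contexts, while the median over all transcripts tested was 0.01 in Mm and 0.00 in Ff. ENSPLAT00000005118.1 had slopes of -0.17 (SE 0.05) in Mm and -0.14 (SE 0.06) in Ff, and ENSPLAT00000029062.1 of -0.13 (SE 0.04) and -0.16 (SE 0.05). The Mm slope minus the Ff slope had a median of -0.01 (median SE 0.11) and was positive in 60 members and negative in 74. The rule used this contrast, so the slopes are given without a test.

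Summed over the members, the order of the females was close to that of the score, which the choice of members nearly fixes. The values that follow describe the females, and nothing is read from them. The mean z-score of the 134 members in Mm, from the lowest to the highest score, was 1.04, 0.62, 0.69, 0.07, 0.11, -0.87, -0.85 and -0.99. In Ff it was 0.92, 0.71, 0.75, -0.14, -0.58, -0.37 and -1.10. The Mm females thus lay at 3 levels, with 3 females high, 2 in the middle and 3 low, whereas female 2, with the highest score of Ff, stood below the other Ff females. The members took up between 0.971 and 1.66% of the counts of a library. Female 17 had the highest value of its context in 65 members and female 12 in 61, and the lowest values fell to female 2 in 83 members and to female 4 in 61. The choice favors these counts too, since females 17 and 12 had the lowest scores of their contexts and females 2 and 4 the highest.

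**Figure D3:**
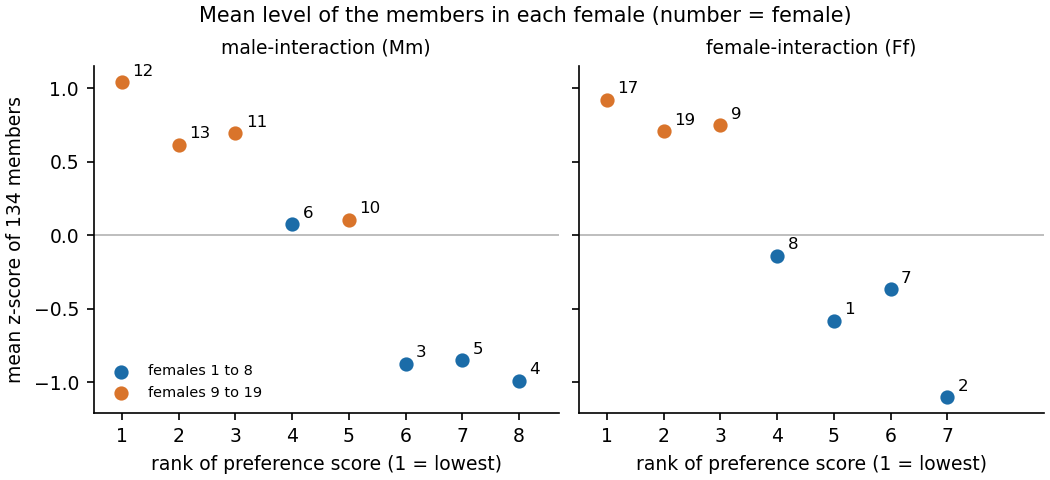
Mean z-score of log2(CPM + 1) over the 134 members (vertical axis) against the rank of the preference score (horizontal axis, 1 is the lowest) in Mm (left) and Ff (right), with 1 point for each female, labelled by her number and colored by number group. In Ff the 3 females 9 to 19, at 0.71 to 0.92, are all above the 4 females 1 to 8, at -0.14 or less, as the choice of members favors. In Mm females 6 and 10, neighbors in score from different number groups, stand at 0.07 and 0.11.

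The lowest scores of both contexts were in females 9 to 19, so the choice of members by the score nearly fixes that they are higher in this number group, and nothing is read from the counts that follow. All 134 members had a higher mean in females 9 to 19 than in females 1 to 8, against 39.6% of all transcripts tested, and 133 did so within both contexts, against 25.8%. The median difference in mean log2(CPM + 1) was 0.52 (range 0.15 to 4.48), against -0.09 over all transcripts. When the model also held number group, the median preference slope was -0.10 in Mm, with 7 members positive, and -0.10 in Ff, with 8 members positive. For ENSPLAT00000005118.1 the slopes with this term were -0.08 in Mm and -0.07 in Ff, and for ENSPLAT00000029062.1 -0.05 and -0.09. Within a number group, the Spearman correlation with the score was negative in 122 members among the 4 Mm females 1 to 8 and in 111 among the 4 Mm females 9 to 19, where 46.1 and 44.9% of all transcripts were negative. In Ff it was negative in 111 members among the 4 females 1 to 8 and in 84 among the 3 females 9 to 19, where 44.5 and 53.7% of all transcripts were. The choice used the same females, so negative values within a number group are favored by it too. In Ff, number group and the order of the scores cannot be told apart. In Mm only females 6 and 10, neighbors in score, break the same order.

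**Figure D4:**
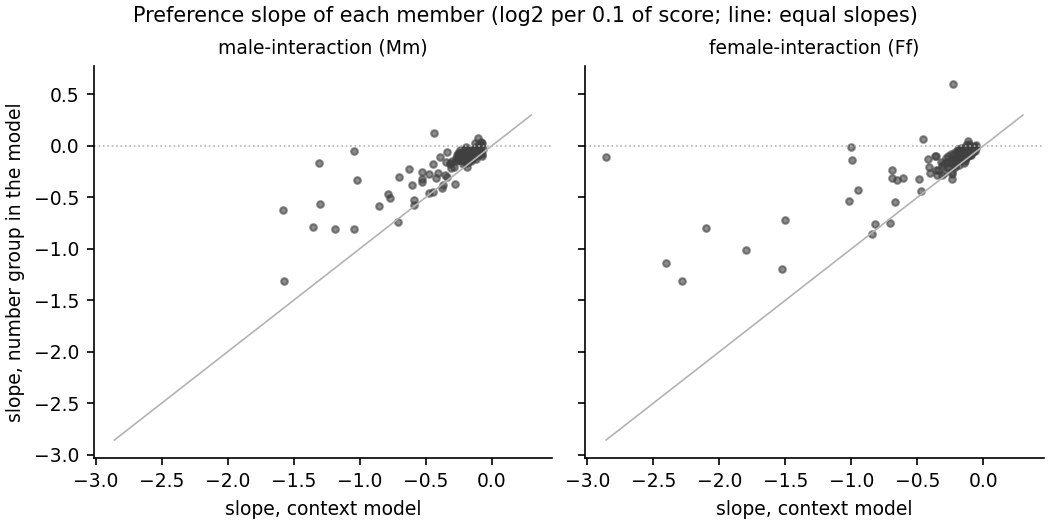
Preference slope of each member (log2 per 0.1 of score) with number group in the model (vertical axis) against the slope without it (horizontal axis), in Mm (left) and Ff (right), with 1 point a member and a line where both are equal. Most points lie above the line, nearer to 0, with medians of -0.10 against -0.19 in both contexts, and 7 members in Mm and 8 in Ff are above 0 on the vertical axis.

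Body size also moved with the members. Score and standard length were related with a Spearman correlation of 0.62 in Mm and 0.57 in Ff. The median Spearman correlation of the members with standard length was -0.64 in Mm and -0.54 in Ff, against 0.10 and 0.04 over all transcripts. A Spearman correlation of -0.7 or less with length was found in 41 members in Mm (30.6%, against 4.62% of all transcripts). In Ff it was found in 37 (27.6%, against 4.52%). The choice by the score favors such values, since length ran with the score. With standard length as a term, the median preference slope was -0.14 in Mm and -0.16 in Ff. Total counts had little relation to the score, with a Spearman correlation of -0.02 in Mm and 0.21 in Ff. The part of body size in these slopes was not tested.

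The members also moved together. Over the 8911 pairs of members, the correlation of log2(CPM + 1) after taking off the mean of each context had a median of 0.62 and was positive in 99.9% of pairs, as a shared relation to the score implies. After the slope on the score was removed, the median was 0.22 and 75.4% of pairs were positive. With number group removed too, the median was 0.12 and 63.5% were positive. No such values are given for pairs of other transcripts, so whether this remaining correlation is particular to the members was not tested. The points of each pair are the same 15 libraries, and 6 members are 3 pairs with the same estimated counts in every female, of 3052, 3620 and 2208 bases, so that the 134 members hold 131 distinct profiles.

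The level and length of the members were not used directly by their choice, apart from the filter that every tested transcript passed. A threshold on a rank correlation is met less easily by transcripts with few counts or many zeros. The choice can thus favor higher levels and fewer zeros, and its part in the differences below was not tested. Their median level was 20.9 TPM, against 10.9 TPM over all transcripts tested, and their median length 1625 bases, against 1782. A TPM above 2 in all 15 females was found in 101 members (75.4%, against 65.1% of all transcripts). The median estimated count behind a value was 159. The range of log2(CPM + 1) over the females had a median of 1.49, against 1.37 over all transcripts. Of the members, 20 (14.9%, against 21.0% of all transcripts) were at 0 in at least 1 female. In 9 members (6.72%, against 10.0% of all transcripts) 4 or more females were at 0, and 52 of the 54 zeros of these 9 fell in females 1 to 8, the number group of the higher scores, as the choice of members favors. The 3 females of highest score were all at 0 in 6 members in Mm and in 5 in Ff. At these depths a 0 says that the transcript was not detectable, and for these members ratios are not given.

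Whether the members also differed between social contexts was a question that their choice did not fix, since females were ranked only within a context. No member differed between contexts after adjustment over all 21671 transcripts (limma, 0 of 134, and 0% of all transcripts). Before adjustment, 5 members (3.73%) had a p below 0.05, against 2.69% of all transcripts. Of the 5, 4 were higher in Ff (2.99% of the members, against 1.55% of all transcripts, where 335 of the 582 called were higher in Ff). Both edgeR and DESeq2 gave 2 such members (1.49%, against 2.10 and 2.19% of all transcripts) and 0 after adjustment. With number group in the model there were 12 (8.96%, against 4.10%) and 0 after adjustment, with a median difference of 0.11 and 97 members higher in Ff. The choice of members favors the 12, the 0.11 and the 97. It nearly fixes that members are higher in the number group of the lowest scores, and Ff held a smaller share of that group than Mm. Nothing is therefore read from the values with number group in the model. The median difference of the members was 0.05 on the log2 scale (quartiles -0.10 and 0.17, median SE 0.24), with 76 members higher in Ff. Without female 17 the median was -0.02 and 3 members had a p below 0.05, and the median was also below 0 without Mm female 3, 4 or 5 or without Ff female 9, so the sign of the median rested on single females. The choice of members favors these shifts, since the members were high in females 17 and 9 and low in females 3, 4 and 5.

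The smallest of these p-values belonged to a member of 642 bases with a mean of 4.62 CPM, named after its values were seen. In Ff it was at 9.51, 8.68, 6.59, 5.12, 4.67, 5.04 and 4.53 CPM from the lowest to the highest score. In Mm it was at 3.28, 4.39, 2.83, 2.78, 4.19, 2.40, 2.72 and 2.63 CPM. Every Ff female was above every Mm female, and the fitted difference was 0.94 (SE 0.25, limma, adjusted p = 1.0). The gap was narrow, between 4.39 CPM in Mm and 4.53 CPM in Ff. The share of all transcripts with such a separation is not given, so nothing is read from it. The member of 7680 bases was higher in Ff by 1.53 (SE 0.64, limma, adjusted p = 1.0), with ranges that overlapped. The 1 member that was lower in Ff, of 1137 bases, ranged from 15.8 to 34.5 CPM in Mm and from 6.38 CPM in female 7 to just under 20 CPM in female 17 in Ff, a difference of -0.65 (SE 0.24, limma, adjusted p = 1.0).

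Social affiliation, the time a female spent in both association zones, was not used to choose the members either. It related weakly to the score (Spearman correlation -0.26 in Mm and -0.14 in Ff). Both values are negative, so choosing members that fall with the score favors positive slopes on affiliation. Nothing is therefore read from the direction of these slopes. The study kept only females with a long time in these zones, so affiliation varied over a narrow range. In Mm the slope of the members on affiliation had a median of 0.19 per 100 s on the log2 scale (quartiles 0.09 and 0.41, median SE 0.17), against 0.00 over all transcripts, and 125 of 134 slopes were positive. Without female 12, which had the lowest score and the longest affiliation time of Mm, the median was 0.08 with 88 positive, and without female 3 it was 0.12. It was 0.05 with 91 positive when preference was in the model, and 0.02 with 79 positive when number group was. No member passed after adjustment (limma, 0 of 134, against 0.00461% of all transcripts). Before adjustment 12 members (8.96%) had a p below 0.05, against 5.00% of all transcripts. All 12 were positive, and positive slopes with such a p made up 2.72% of all transcripts (590 of the 1084 called). The count of 12 members also rested on female 12: without her 0 members had a p below 0.05 (against 4.75% of all transcripts). Without female 3 there were 3 (2.24%, against 3.59%), and without female 5 there were 19 (14.2%, against 6.08%). With preference or with number group in the model, 4 members had such a p (2.99%, against 3.42 and 3.83%). In edgeR there were 4 (2.99%, against 3.85%) and in DESeq2 3 (2.24%, against 4.24%). The members in these alternatives were all positive, while the shares of all transcripts beside them count both directions. Of all transcripts called, 304 of 835 were positive in edgeR and 317 of 918 in DESeq2. With preference in the model 341 of 741 were, and with number group 507 of 831. The choice favors positive slopes, so nothing is read from these counts.

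In Ff the affiliation slopes had a median of 0.08 per 100 s (quartiles -0.02 and 0.19, median SE 0.20), and 91 were positive. No member passed after adjustment (limma, 0 of 134, and 0% of all transcripts), and 4 members (2.99%) had an unadjusted p below 0.05, against 7.29% of all transcripts. All 4 were positive, and positive slopes with such a p also made up 2.99% of all transcripts (647 of the 1580 called). In both directions edgeR gave 4 (against 6.99%) and DESeq2 3 (against 7.33%). Female 17, with the lowest score and the shortest affiliation time of Ff, decided this result. Without her, females 19, 9 and 8 had the lowest scores and the longest affiliation times of Ff, so the choice of members favors positive slopes there. All 134 slopes were then positive, with a median of 0.42. In that fit 33 members had a p below 0.05 (24.6%), against 5.02% of all transcripts in this direction, and still 0 after adjustment. Nothing is read from these counts. Without female 19, 1 member had such a p (0.746%, against 5.92%) and the median was -0.06. Without female 9 there were 2 (1.49%, against 5.75%) and the median was -0.04, and without female 7 there were 2 (against 6.74%) and the median was 0.05. These members were positive, while the shares of all transcripts without female 19, 9 or 7 count both directions. The median was -0.01 with number group in the model. On log2(TPM + 1) it was also -0.01, but there the median of all transcripts moved to -0.08, so that the members lay 0.07 above it, as they did on counts. The difference between the affiliation slopes of Mm and Ff had an unadjusted p below 0.05 in 1 member (0.746%, against 6.09% of all transcripts) and in 0 after adjustment.

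A member of 2289 bases and a mean of 6.97 CPM had an unadjusted p below 0.05 in both contexts, with slopes of 2.39 (SE 0.88, limma, adjusted p = 0.94) in Mm and 4.21 (SE 1.20, limma, adjusted p = 0.60) in Ff, and was at 0 in 6 females. For ENSPLAT00000005118.1 the affiliation slope was 0.17 (SE 0.15, limma, adjusted p = 0.94) in Mm and 0.08 (SE 0.16, limma, adjusted p = 0.98) in Ff.

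**Figure D5:**
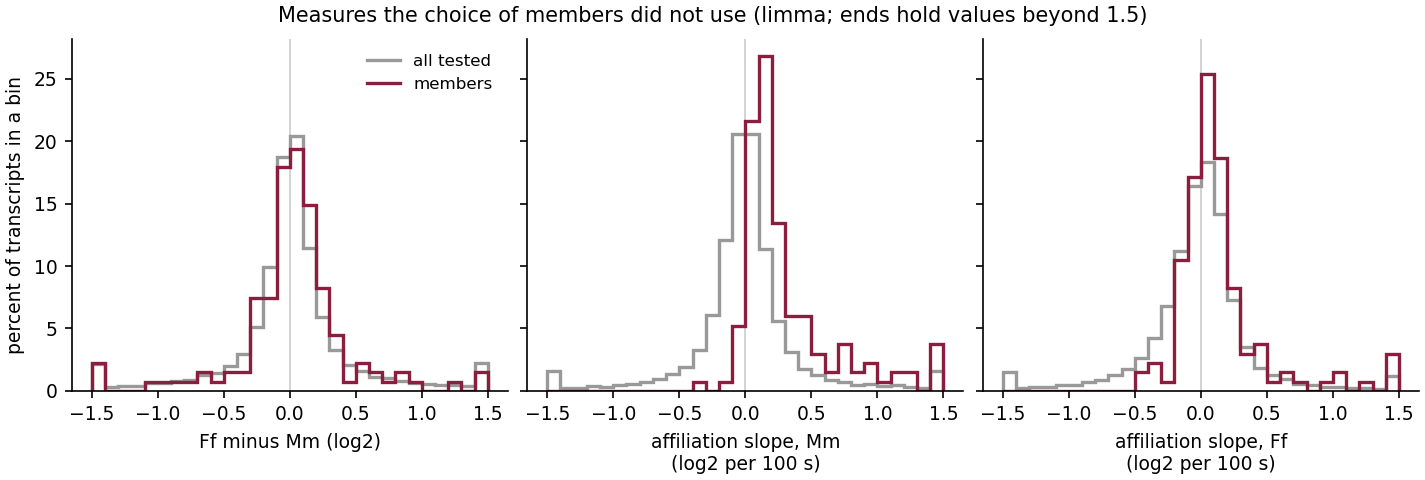
Percent of transcripts (vertical axis) in bins of 0.1 for 3 fitted effects in limma: Ff minus Mm (left, log2), and the slope on affiliation in Mm (middle) and Ff (right, log2 per 100 s), for the 134 members (red) and all 21671 transcripts tested (gray). The members follow all transcripts for context, with medians of 0.05 and 0.01, and lie to the right for affiliation in Mm, with medians of 0.19 and 0.00. Affiliation ran against the score in Mm, so the choice of members favors this shift. Without female 12 the median of the members there is 0.08, and with preference or number group in the model 0.05 or 0.02.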

How the data were processed

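Whole-brain mRNA libraries of 15 females were sequenced as single-end reads. The authors trimmed them with cutadapt, checked them with FastQC and pseudoaligned them with kallisto 0.43.0 to the Ensembl cDNA of P. latipinna. For each transcript the authors deposited an estimated count, which need not be whole, and a TPM value computed from it and the effective length. They are not scaled between libraries otherwise. The study summed counts by gene, which was not done here, so reads shared between transcripts or paralogs are divided only as kallisto does.

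The filter required a TPM over 2 in at least 3 females. It passed 21671 transcripts, with 99.6% of counts, and removed 10142. Members were found on CPM from the estimated counts, with score, affiliation and standard length read from the supplementary table of the study. The members and lists were chosen with earlier results of these data known. Rounded counts were fitted with voom and limma 3.58.1 (TMM factors from edgeR 4.0.16 of 0.943 to 1.03, R 4.3.3) in the models of the study, for context and, within each context, for preference and for affiliation. P-values were adjusted with the Benjamini-Hochberg method over all 21671 transcripts, and the empirical rate of the study was not used. Measures tied to the score (slopes, number group, length) have no test. The edgeR quasi-likelihood test, DESeq2 1.42.0, limma on log2(TPM + 1) and log2(TPM + 0.1), no TMM factors, no filter, further terms and each female left out were the alternatives, and membership was also found with other units, filters and thresholds. The scripts, with Python 3.11.15, NumPy 2.4.6 and SciPy 1.17.1, were tested on simulated counts. Each library is a separate female, with 3424641 to 10555933 estimated counts. The identifiers printed are the member with the most negative sum of both correlations (ties by mean CPM) and, of the others, the member with the highest mean CPM.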

Additional observations from a re-analysis of the deposited data

Results flagged for a closer look

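Within a context, 26 of 268 sets of values (134 members in 2 contexts) held 1 female that stood far from the others, by a gap large against the range. The limit for this gap is set for about 1 in 20 among normally distributed values, which CPM need not be. The members share the same females, and no share over all transcripts is given, so nothing is read from this count. Of the members described, the 1716-base member with a mean of 41.3 CPM reached 140 CPM in female 9 of Ff, far above the other Ff females. A second member of 1716 bases, with a mean of 1.95 CPM and 9 females at 0, stood out at 17.1 CPM in female 12 of Mm and at 2.66 CPM in female 19 of Ff. Female 8 of Ff had the largest library, with a total of 10555933 estimated counts, and the other Ff libraries held between 5301116 and 6742415.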

How the results depend on the processing

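No paired analysis was possible because the numbers of the females are unique and no number is shared between contexts. The number of members, 134, was 386 at a threshold of -0.6 and 30 at -0.8, and from 119 (without female 2 of Ff) to 216 (without female 7 of Ff) with 1 female left out. With fewer females the same threshold is met more easily, so the counts with 1 female left out are not like for like. With TPM in place of CPM 119 transcripts qualified, of which 81 were among the 134, and with Pearson's correlation 98, of which 48 were. Rounding the counts first, an alternative chosen after seeing the data, gave 132 members with 130 shared. With number group in the model, median preference slopes were -0.102 in Mm and -0.0996 in Ff. Leaving out 1 female gave -0.206 to -0.170 in Mm and -0.218 to -0.152 in Ff. Members with an unadjusted p below 0.05 between contexts, 5, were 2 with edgeR (1.49%, against 2.10% of all transcripts), 2 with DESeq2 (against 2.19%) and 3 to 6 with 1 female left out. With number group in the model they were 12 (8.96%, against 4.10%), a count that the choice of members favors. For affiliation in Mm, 12 became 4 with edgeR (2.99%, against 3.85%), 3 with DESeq2 (2.24%, against 4.24%), 3 with log2(TPM + 1) (against 5.33%), 3 with log2(TPM + 0.1) (against 5.35%), 4 with number group (against 3.83%), 4 with preference in the model (against 3.42%) and 0 to 19 with 1 female left out. For affiliation in Ff, 4 became 2 with log2(TPM + 1) (1.49%, against 9.29%), 1 with log2(TPM + 0.1) (against 9.43%), 7 with number group (5.22%, against 8.08%) and 1 to 33 with 1 female left out. The shares of all transcripts for affiliation count both directions, and the choice favors positive slopes. In Mm all members counted were positive, as were those in Ff apart from number group, where 4 of the 7 were. On log2(TPM + 1) in Ff, 263 of the 2013 transcripts called were positive, and on log2(TPM + 0.1) 282 of 2044. Nothing is read from these counts. The causes of the changes were not tested. Adjusted counts were 0 under each of these alternatives. Of the member counts and median preference slopes under an alternative, 177 stayed within the limits set (a fixed ratio for counts, the median SE for slopes) and 25 moved. The 177 include the adjusted counts, which were 0 throughout, and slopes whose sign the choice favors. They are therefore no measure of how stable the results are. Signs were less stable for what was not called: with 1 female left out, the median difference between contexts ran from -0.05 to 0.14 and the median affiliation slope in Ff from -0.06 to 0.42, and for ENSPLAT00000005118.1 these ran from -0.15 to 0.04 and from -0.13 to 0.39. The choice favors such shifts, since it sets the members high in females of low score and low in those of high score. Counting error is widest in members with few counts, and the median estimated count of a member ran from 0 to 28871.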
